A study of Rattus norvegicus with 8 samples.

Results

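The genes described are 10 genes of iron handling and heme synthesis in rat liver. They are Hamp, Tfrc, Tfr2, Fth1, Slc40a1, Cp, Hpx, Alas1, Alas2 and Fech, matched to probe sets by gene symbol or gene identifier. The list was chosen with earlier results of these data known, so counts of its changed genes are a description and not a test. They stood on the array as 11 of 26208 probe sets, 10 genes of 24174. Fech had a pair of probe sets, described in the files as transcript variants of the same gene, and Tfr2 was matched by its gene identifier because the files call it Trfr2. RNA from the livers of 8 male F344/N rats was hybridised to NimbleGen arrays with a single dye; 4 rats were given thioacetamide for 28 days and 4 were untreated controls on basal diet and tap water. This liver poison is turned into reactive products by liver enzymes. Gavage is the labelled route in both groups, although the protocol text calls the controls untreated, and no dose is stated in the sources used here. All 11 probe sets lay above background on all 8 arrays, where background is the 95th percentile of the olfactory receptor probe sets of an array. That level was 6.95 to 7.94 on control arrays and 6.54 to 6.95 on treated arrays. A value of the same size can therefore lie under background in a control and above it in a treated rat.

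Liver cells take up transferrin-bound iron through the transferrin receptor Tfrc, and Tfr2 is a related receptor that hepatocytes use to sense iron in plasma. Iron is stored in ferritin, of which Fth1 is the heavy chain, and leaves cells through ferroportin, Slc40a1, helped by ferroxidases such as ceruloplasmin, Cp. Hepatocytes secrete hepcidin, Hamp, which binds ferroportin and causes its breakdown, so that hepcidin lowers iron export. The other use of liver iron is heme: Alas1 makes the first and rate-limiting step in liver, Alas2 is the form of red cell precursors, Fech inserts iron into the finished porphyrin ring, and hemopexin, Hpx, returns free heme from plasma to the liver. Iron regulatory proteins bind hairpins in the RNAs of Tfrc, Fth1, Slc40a1 and Alas2, so that part of their control acts on RNA stability or on translation, and only RNA level was measured here.

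Of the 10 genes, 2 rose, 3 fell and 5 did not pass the test (limma, p adjusted across all probe sets by Benjamini-Hochberg, below 0.05). By probe set this was 6 of 11, with 2 higher and 4 lower, against 14.6% of all probe sets called (9.46% higher and 5.14% lower), and by gene against 14.9% of all genes (9.67% higher and 5.23% lower). The 2 groups of arrays did not overlap in 7 of 11 probe sets, against 21.5% of all probe sets. Both transferrin receptors passed, in opposite directions, with Tfrc higher and Tfr2 lower. The exporter gene Slc40a1 rose, the heme synthesis genes Alas2 and Fech fell, and Hamp, Fth1, Cp, Hpx and Alas1 did not pass. The median log2 difference of the 11 probe sets was -0.02, and that of all probe sets was -0.03. The count fell to 3 of 11 without thioacetamide replicate 1 and to 3 of 11 without thioacetamide replicate 2.

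**Figure D1:**
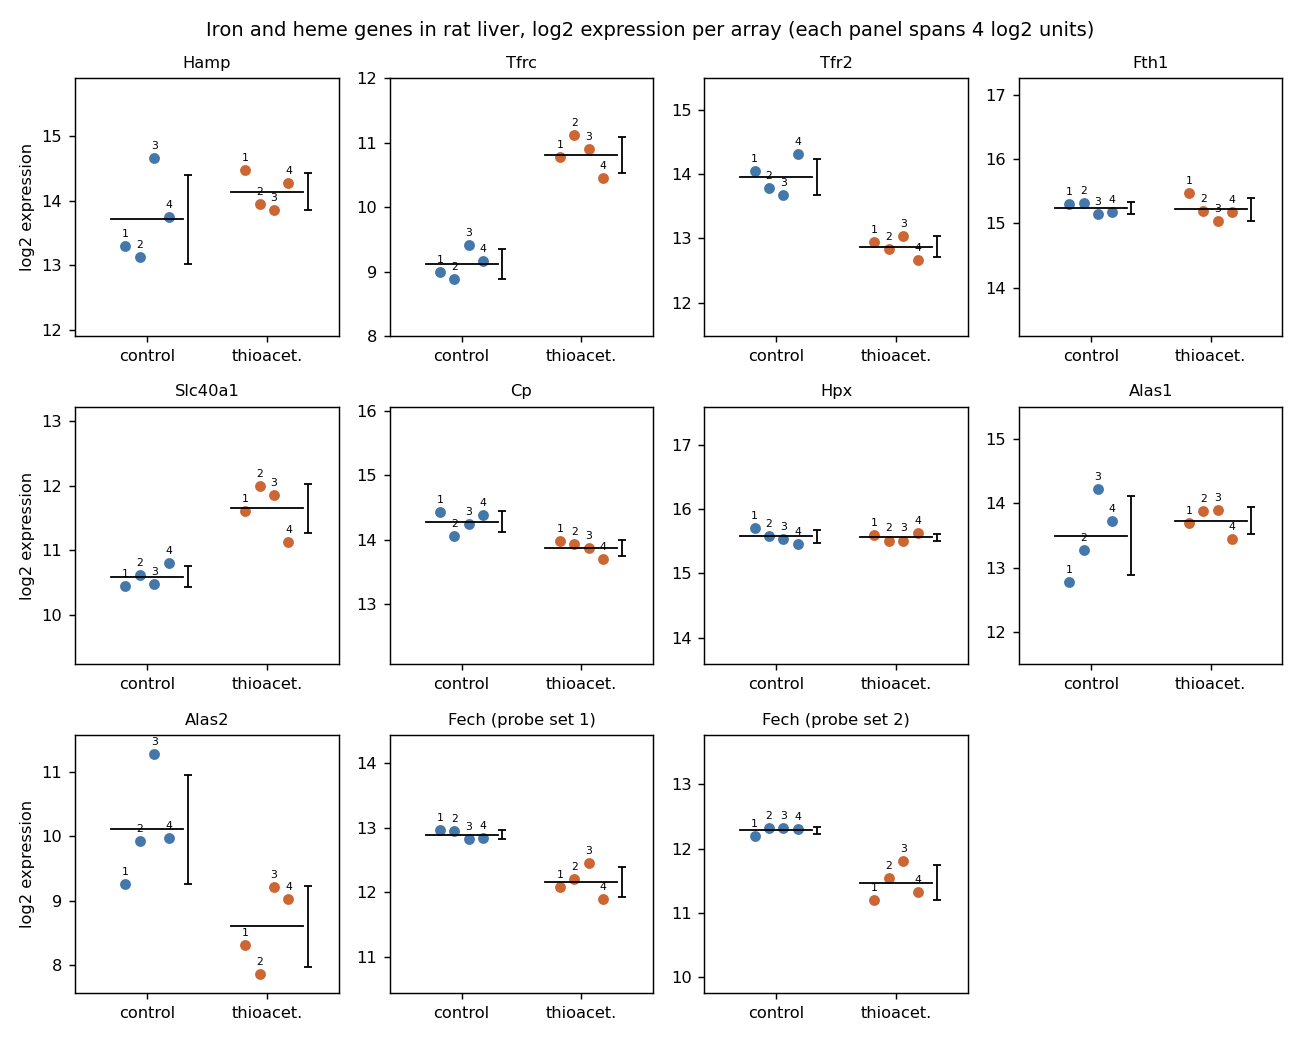
Log2 expression of the 11 probe sets on each array, with points numbered by replicate, a line at the group mean and a bar of 1 SD (n = 4 per group); every panel spans 4 log2 units. Treated arrays of Tfrc sit between 10.45 and 11.12, above all control arrays, and those of Tfr2 between 12.66 and 13.04, below all control arrays, while the groups of Hamp, Fth1, Hpx and Alas1 overlap.

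The sequences before the transcript start are shown for Hamp, whose known control elements can be located there, for Tfrc and Slc40a1, the genes that rose, and for Fech, which fell on both of its probe sets. The 250 bases upstream of the start come from RefSeq (GRCr8 assembly), written from 5′ to 3′ on the gene's strand in lower case, with motif matches in capitals. The motifs searched on both strands were GGCGCC (core of the bone morphogenetic protein element), TTCNNNGAA (element of STAT factors), AGATAA (element of erythroid zinc finger factors), ACGTG (core of the hypoxia element, which also lies within some E-boxes) and TGACNNNGC (antioxidant element).
Hamp (chr1:95300272-95300521, minus strand): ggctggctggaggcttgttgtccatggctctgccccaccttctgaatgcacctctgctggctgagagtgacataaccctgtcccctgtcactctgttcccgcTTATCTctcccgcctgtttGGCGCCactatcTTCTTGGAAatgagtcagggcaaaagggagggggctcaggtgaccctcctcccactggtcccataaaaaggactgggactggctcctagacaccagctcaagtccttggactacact
Tfrc (chr11:81690319-81690568, minus strand): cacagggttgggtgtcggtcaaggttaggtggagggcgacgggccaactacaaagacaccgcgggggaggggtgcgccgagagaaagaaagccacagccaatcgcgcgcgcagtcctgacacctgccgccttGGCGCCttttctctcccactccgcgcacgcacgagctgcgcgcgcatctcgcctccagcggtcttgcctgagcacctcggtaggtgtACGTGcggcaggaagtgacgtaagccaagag
Slc40a1 (chr9:55543461-55543710, minus strand): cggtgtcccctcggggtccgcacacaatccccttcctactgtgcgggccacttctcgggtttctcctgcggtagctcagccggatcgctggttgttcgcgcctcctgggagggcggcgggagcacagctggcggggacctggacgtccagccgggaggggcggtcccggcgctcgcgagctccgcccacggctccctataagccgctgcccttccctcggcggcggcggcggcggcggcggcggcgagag
Fech (chr18:60248526-60248775, minus strand): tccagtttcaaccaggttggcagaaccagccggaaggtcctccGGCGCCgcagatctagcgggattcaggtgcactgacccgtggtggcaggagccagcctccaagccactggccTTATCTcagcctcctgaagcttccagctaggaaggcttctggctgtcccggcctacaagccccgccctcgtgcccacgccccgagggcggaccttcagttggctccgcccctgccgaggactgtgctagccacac
In the Hamp sequence GGCGCC began at position -129 and the STAT match TTCTTGGAA at -117, where -1 is the base before the start, and a reverse AGATAA began at -148. Tfrc held GGCGCC at -118 and ACGTG at -31. Fech held GGCGCC at -207 and a reverse AGATAA at -135, and none of the 5 motifs stood in the 250 bases of Slc40a1. Of the 9 members in the table (all but Fth1), 3 held GGCGCC, against 8.69% of 33469 windows of the same length, and 3 held AGATAA, against 10.3%. TTCNNNGAA stood in 2 of 9 (7.67% of all windows), ACGTG in 1 of 9 (16.6%) and TGACNNNGC in 1 of 9 (10.1%). Hamp, whose known control elements were among the motifs sought, is counted among the members with GGCGCC, TTCNNNGAA and AGATAA. The counts are thus a description and not a test. The windows of Slc40a1, Cp and Alas2 lie inside the annotated span of their gene, so other starts exist upstream of them. A match is a run of letters and does not show that a factor binds there.

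Tfrc, the main cellular importer of transferrin-bound iron, had the largest rise among the 10 genes. Its log2 levels in control rats 1 to 4 were 8.99, 8.88, 9.42 and 9.17, and in thioacetamide rats 1 to 4 they were 10.78, 11.12, 10.91 and 10.45. Every treated rat lay more than 1 log2 unit above the highest control. The difference was 1.70 ± 0.21 (SE of the fit), a 3.25-fold rise (adjusted p = 0.000776). It passed in all 8 fits with 1 array left out, where it ranged from 1.60 to 1.82. The probe set held 2 probes, and those of the other members 3.

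Tfr2, the iron-sensing receptor of hepatocytes, moved the other way. Control rats 1 to 4 were at 14.05, 13.79, 13.68 and 14.31, and thioacetamide rats 1 to 4 at 12.94, 12.83, 13.04 and 12.66 on the log2 scale. All treated rats lay below all controls. The gene fell 2.13-fold (log2 difference -1.09 ± 0.20, adjusted p = 0.00625), and with any 1 array left out the difference stayed between -1.18 and -0.97 and passed.

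Slc40a1, which encodes ferroportin, the iron exporter of vertebrate cells, rose. Control rats 1 to 4 were at 10.45, 10.62, 10.48 and 10.80 on the log2 scale, and thioacetamide rats 1 to 4 at 11.61, 12.00, 11.86 and 11.12. Thioacetamide replicate 4 was the lowest treated rat and still lay above every control. The rise was 2.08-fold (1.06 ± 0.23, adjusted p = 0.0124), with 0.94 to 1.24 and a highest adjusted p of 0.0472 when 1 array was left out. Kupffer cells, the resident macrophages of the liver, also express this gene. Of 14 measured macrophage markers 4 fell and 0 rose (9 and 0 with a limma p below 0.05 before adjustment), and the log2 of their summed signal was 16.07 to 16.80 among controls and 15.54 to 16.05 among treated rats. The number that fell ranged from 1 to 4 with 1 array left out, and was 1 without thioacetamide replicate 2 and 2 without thioacetamide replicate 1, 3 or 4; it was 8 under median centring. All 14 markers were above background on each array. Their part in the Slc40a1 result was not tested. In whole liver, fewer cells of a type and less RNA per cell cannot be told apart.

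Fth1, the ferritin heavy chain, showed no difference that passed. Its control levels were 15.30, 15.32, 15.14 and 15.17 and its treated levels 15.47, 15.19, 15.03 and 15.17 in rats 1 to 4, on the log2 scale. The groups overlapped, and the difference was -0.02 ± 0.18 with a 95% interval from -0.41 to 0.38 (adjusted p = 0.965); its sign turned under cyclic loess (0.06). The light chain Ftl1 differed by 0.41 ± 0.18 (adjusted p = 0.172), and Ncoa4, which carries ferritin to the lysosome, by 0.44 ± 0.20 (adjusted p = 0.165). Neither passed, and both were listed with the wider iron genes.

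Ceruloplasmin and hemopexin, both secreted by hepatocytes, did not pass. Cp was at 14.43, 14.06, 14.25 and 14.39 in controls and at 13.98, 13.93, 13.87 and 13.70 in treated rats. The groups of Cp did not overlap, but the difference was small (-0.41 ± 0.18, 95% interval -0.81 to -0.01, adjusted p = 0.155); it passed only with an intensity trend and robust estimation (adjusted p = 0.0361). Hpx was at 15.71, 15.58, 15.54 and 15.46 in controls and at 15.60, 15.51, 15.51 and 15.62 in treated rats. Its difference was -0.01 ± 0.17 (95% interval -0.38 to 0.36, adjusted p = 0.971), and 0.08 under cyclic loess. The highest values on the 8 arrays lay between 15.89 and 15.98, so Fth1 and Hpx stood near the top of the scale. The light chain Ftl1 (means 14.87 in controls and 15.28 in treated rats) was not far below. Whether the signal of these genes was limited there was not tested.

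Among the wider genes of iron uptake, storage and release, 2 rose and 2 fell of 20 measured (6 and 2 with a limma p below 0.05 before adjustment), with a median log2 difference of 0.20; the median over all genes was -0.04 and 14.9% of genes were called. Slc25a28, mitoferrin 2, which imports iron into mitochondria, rose 2.33-fold (1.22 ± 0.19, adjusted p = 0.00237). Steap3, an endosomal reductase that turns ferric into ferrous iron, fell 1.97-fold (-0.98 ± 0.22, adjusted p = 0.0142). Slc22a17, a receptor for the siderophore-binding protein lipocalin 2, fell 2.54-fold (-1.35 ± 0.22, adjusted p = 0.00302). Heph, a membrane ferroxidase related to ceruloplasmin, was higher (adjusted p = 0.0443; means 6.63 ± 0.77 and 7.86 ± 0.28, SD, n = 4 each). As 3 of its 4 control values lay at or under background, no fold is given. That call was lost under median centring, cyclic loess and quantile normalization (adjusted p = 0.0551, 0.0656 and 0.0542) and in 5 of the 8 fits with 1 array left out (without control replicate 4 and without each thioacetamide replicate).

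Of 6 plasma carriers and their receptors, 1 fell and 0 rose (2 and 0 with a limma p below 0.05 before adjustment). Lrp1, the receptor that takes up hemopexin with its heme, fell 2.92-fold (-1.55 ± 0.32, adjusted p = 0.00971). Transferrin, Tf, differed by -0.06 ± 0.16 (adjusted p = 0.856; 0.04 under cyclic loess) and haptoglobin, Hp, which binds free haemoglobin, by -0.09 ± 0.20 (adjusted p = 0.797). The control and treated means were 15.54 and 15.49 for Tf and 15.30 and 15.20 for Hp. Both genes thus stood near the top of the scale too, and whether their signal was limited there was not tested.

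**Figure D2:**
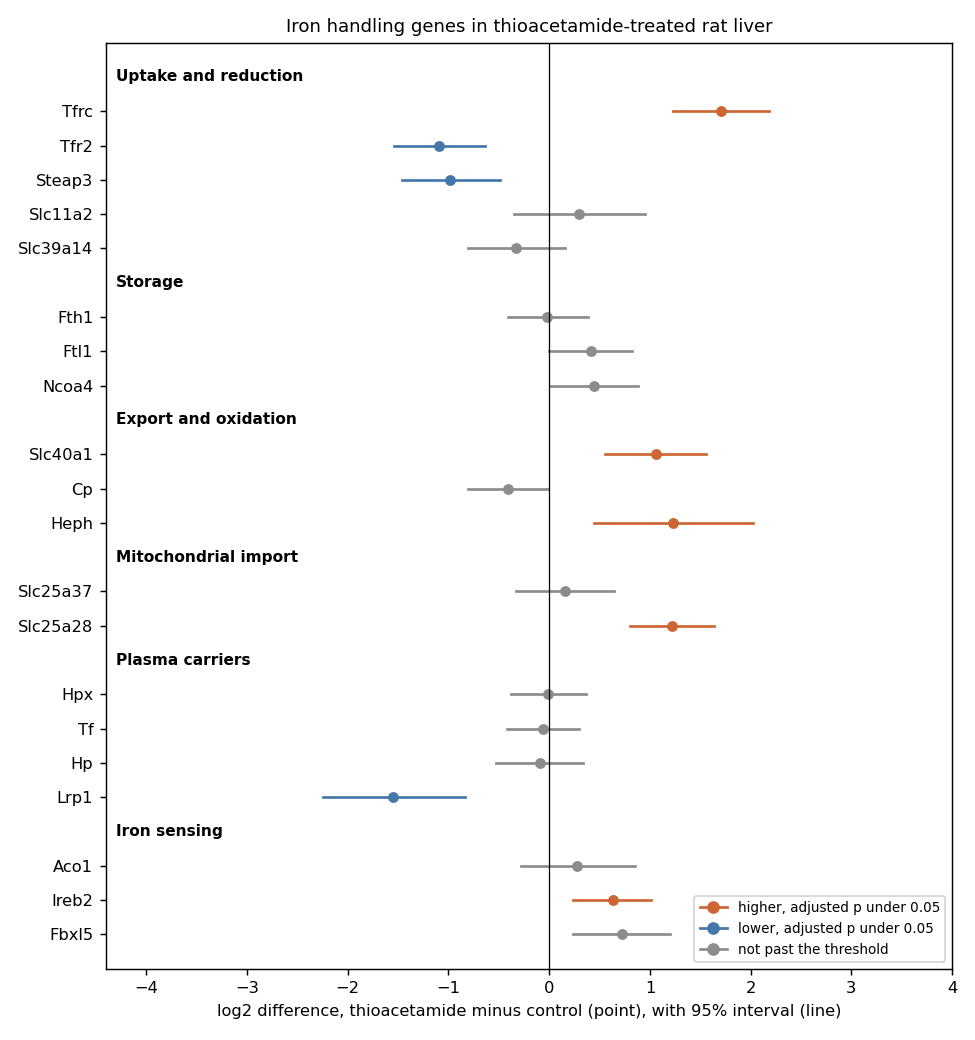
Log2 difference, thioacetamide minus control, with its 95% interval from the limma fit (n = 4 rats per group) for iron handling genes ordered by role. Tfrc (1.70), Slc25a28 (1.22) and Slc40a1 (1.06) lie to the right and Lrp1 (-1.55), Tfr2 (-1.09) and Steap3 (-0.98) to the left, while the intervals of Fth1, Hpx, Tf and Hp span 0. Heph, above background on 1 of 4 control arrays, and Ireb2 (0.63) were also called higher.

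Hepcidin did not pass, and its control rats differed widely. Control rats 1 to 4 were at 13.29, 13.13, 14.67 and 13.75, and thioacetamide rats 1 to 4 at 14.48, 13.95, 13.86 and 14.27 on the log2 scale. Control replicate 3 was the highest of all 8 arrays, and the other 3 controls lay below every treated rat. The SD was 0.69 in controls and 0.29 in treated rats (n = 4 each). The difference was 0.43 ± 0.33 (95% interval -0.31 to 1.17, adjusted p = 0.427). Without control replicate 3 it was 0.75 (adjusted p = 0.063). That array also had the highest background level of the 8 (7.94, against 6.54 to 7.36 in the others), and its part in the hepcidin spread was not tested.

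The genes that sense iron and control hepcidin changed in both directions. Of 31 measured, 6 rose and 4 fell (10 and 6 with a limma p below 0.05 before adjustment), with a median of 0.09. The count ranged from 5 to 10 with 1 array left out, and was 5 without thioacetamide replicate 2, 6 without thioacetamide replicate 1 and 6 without control replicate 1. Id1, a target gene of bone morphogenetic protein signals, was at 6.10, 5.72, 6.16 and 5.95 in controls, none above its array's background, and at 9.35, 8.97, 8.30 and 8.96 in treated rats. It was at least 3.01-fold higher (adjusted p = 9.38e-05; the groups averaged 5.98 ± 0.20 and 8.89 ± 0.43, SD, n = 4); the bound sets the treated mean against the background level of the control arrays. Smad1 and Smad5, which carry that signal to the nucleus, each rose 2.05-fold (1.04 ± 0.18 and 1.03 ± 0.20, adjusted p = 0.00468 and 0.00841). In the same list Smad6, Smad7 and Atoh8 did not pass. Smad6 differed by -0.79 with groups that did not overlap (adjusted p = 0.068), and by -0.56 on its dimmer probe set (adjusted p = 0.204). Smad7 differed by -0.04 (adjusted p = 0.913) and Atoh8, above background in 1 control and 2 treated rats, by 0.24 (adjusted p = 0.725). The ligand Bmp6, the main iron-responsive inducer of hepcidin, was at 8.26, 8.05, 8.10 and 8.76 in controls and at 8.50, 8.27, 8.30 and 8.11 in treated rats. Its difference was 0.00 ± 0.21 (95% interval -0.47 to 0.47, adjusted p = 0.998), and negative under median centring, cyclic loess and quantile normalization.

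Tmprss6, Hfe and Fgl1 fell, while the receptor gene Bmpr1a of the same list rose (0.99 ± 0.28, adjusted p = 0.0433; not examined under the alternatives). Tmprss6, a protease that cleaves the hepcidin co-receptor hemojuvelin and so restrains hepcidin, was at 13.68, 13.13, 12.84 and 13.91 in controls and at 12.21, 11.88, 12.33 and 11.85 in treated rats. The groups did not overlap, and the fall was 2.50-fold (-1.32 ± 0.26, adjusted p = 0.00889). Hfe, the membrane protein mutated in human haemochromatosis and a partner of both transferrin receptors, fell 1.96-fold (-0.97 ± 0.23, adjusted p = 0.0187), and lost the threshold without control replicate 1 (adjusted p = 0.051) and without thioacetamide replicate 2 (adjusted p = 0.0509). Fgl1, a hepatocyte-secreted protein that in mice restrains hepcidin, fell 2.24-fold (-1.16 ± 0.18, adjusted p = 0.00261). Hemojuvelin itself, Hjv, differed by -0.69 ± 0.32 (adjusted p = 0.190), and its partner Neo1 by 1.07 ± 0.38 (adjusted p = 0.0946). The receptor genes Bmpr2 (-0.02, adjusted p = 0.955), Acvr1 (-0.10, adjusted p = 0.842) and Acvr2a (0.51, adjusted p = 0.139) did not pass.

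Genes of interleukin 6 signalling and of the acute phase are given here because interleukin 6 induces hepcidin. Il6r, the interleukin 6 receptor, fell by 1.23 on the log2 scale (SE 0.36, adjusted p = 0.0482), and this passed in 2 of the 8 fits with 1 array left out (those lacking control replicate 1 or thioacetamide replicate 3); array weights also ended it (-0.95, adjusted p = 0.0614). Il6 was at or under background on all 8 arrays. Stat3, which carries the interleukin 6 signal to the hepcidin gene, differed by 0.00 in size (SE 0.19, 95% interval -0.43 to 0.42, adjusted p = 0.997). Of 16 acute phase genes 1 rose and 3 fell (2 and 5 with a limma p below 0.05 before adjustment). Thus 4 of 16 were called beside 14.9% of all genes, with a median of -0.14. Some of the 16 stood near the array maxima, among them Fgb (means 15.67 in controls and 15.70 in treated rats) and C3 (15.26 and 15.19). A2m, the alpha-2-macroglobulin of rat inflammation, was higher (adjusted p = 0.00439; means 7.02 ± 0.64 and 9.15 ± 0.59, SD, n = 4 each). As 2 of its 4 control values lay at or under background, no fold is given. Apcs, serum amyloid P, fell by 0.91 (SE 0.19, adjusted p = 0.0112), Serpina3n by 1.09 (SE 0.28, adjusted p = 0.0274) and Saa4 by 0.61 (SE 0.18, adjusted p = 0.0431). Serpina3n lost the threshold in 4 of 8 fits with 1 array left out (without replicates 1 and 2 of each group), and Saa4 in all 8 (adjusted p from 0.0501 to 0.104) and under cyclic loess and quantile normalization (adjusted p = 0.0578 and 0.0611).

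Gdf15, a stress-induced growth factor linked to low hepcidin in human anaemias with ineffective red cell production, was at or under background in all controls and above it in 3 of 4 treated rats (means 5.57 ± 0.29 and 6.82 ± 0.65, SD, n = 4 each; adjusted p = 0.0263). The treated mean lay below the mean control background, so no fold is given. The call was lost in 5 of 8 fits missing 1 array, those lacking control replicate 1 or 4 or thioacetamide replicate 1, 2 or 3 (highest adjusted p = 0.0877). Of the iron regulatory proteins, which bind the hairpins named above, Ireb2 rose 1.54-fold (0.63 ± 0.17, adjusted p = 0.0364), with 10.92, 11.13, 10.95 and 11.03 in controls and 11.59, 11.79, 11.48 and 11.68 in treated rats. The groups of Ireb2 did not overlap, but the call was lost in all 8 fits with 1 array left out (adjusted p from 0.0546 to 0.115) and under median centring and cyclic loess. Aco1, the other iron regulatory protein, differed by 0.28 ± 0.25 (adjusted p = 0.501). Fbxl5, which marks Ireb2 for degradation, differed by 0.72 ± 0.22 (adjusted p = 0.0515).

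**Figure D3:**
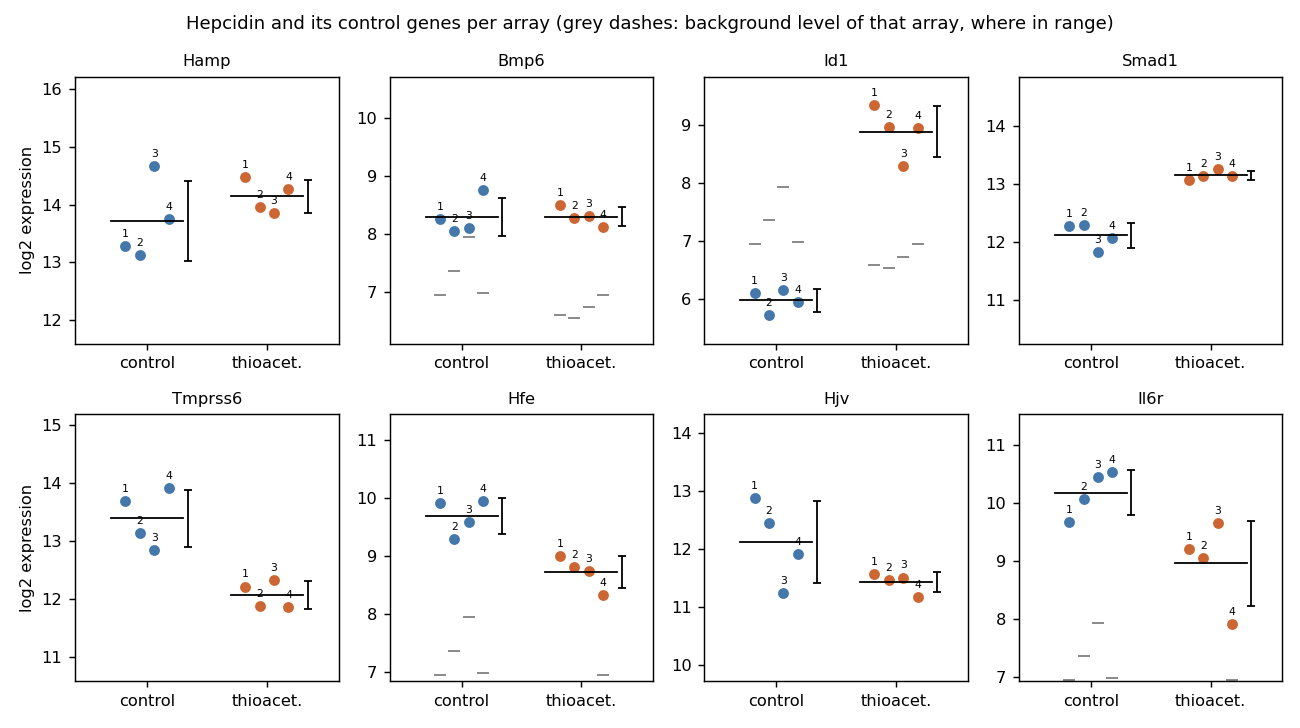
Log2 expression per array of Hamp and 7 genes of its control, with points numbered by replicate, a line at the group mean, a bar of 1 SD (n = 4 per group) and grey dashes at the background level of each array where it falls in the panel. Id1 controls lie under background and its treated rats between 8.30 and 9.35; the groups of Smad1, Tmprss6, Hfe and Il6r do not overlap, and those of Hamp, Bmp6 and Hjv do.

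Alas1, the rate-limiting enzyme of liver heme synthesis, did not pass. Its control levels were 12.78, 13.27, 14.22 and 13.73, and its treated levels 13.70, 13.89, 13.90 and 13.45 in rats 1 to 4. The treated rats all lay within the control range. The difference was 0.24 ± 0.30 (95% interval -0.43 to 0.90, adjusted p = 0.642), and 0.48 (adjusted p = 0.254) without control replicate 3, which was the highest array here too. Of 6 known regulators of Alas1, 2 fell and 0 rose (4 and 0 with a limma p below 0.05 before adjustment), with a median of -0.90. Nr1i3, the receptor CAR, which induces Alas1 together with cytochrome P450 genes in response to drugs, fell 6.99-fold (-2.81 ± 0.30, adjusted p = 0.000319). Its levels were 12.51, 12.99, 12.78 and 12.14 in controls and 10.01, 9.34, 10.46 and 9.38 in treated rats, groups more than 1 log2 unit apart. Nr1i2, the receptor PXR with a similar role, fell 2.17-fold (-1.12 ± 0.19, adjusted p = 0.00398).

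Fech, the last enzyme of the pathway, was lower on both of its probe sets. The brighter probe set was at 12.97, 12.95, 12.82 and 12.84 in controls and at 12.08, 12.20, 12.46 and 11.90 in treated rats. The dimmer was at 12.20, 12.32, 12.32 and 12.30 in controls and at 11.20, 11.55, 11.81 and 11.32 in treated rats. The groups overlapped on neither, and thioacetamide replicate 3 was the highest treated rat on both. The falls were 1.67-fold (-0.74 ± 0.19, adjusted p = 0.0251) and 1.76-fold (-0.82 ± 0.19, adjusted p = 0.0189). Leaving out 1 array ended the call of the brighter probe set in 5 of 8 fits (those lacking control replicate 1 or 2 or thioacetamide replicate 1, 2 or 4; adjusted p up to 0.0765) and that of the dimmer in 2 (adjusted p = 0.0651 and 0.0511 without thioacetamide replicates 1 and 2). These probe sets measure transcripts of 1 gene and are not independent.

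The other heme synthesis genes gave 1 rise and 0 falls of 13 measured (1 and 4 with a limma p below 0.05 before adjustment), with a median of 0.01. The rise was Cpox, coproporphyrinogen oxidase, at 1.65-fold (0.72 ± 0.20, adjusted p = 0.0349), and it passed in 2 of the 8 fits with 1 array left out (those lacking control replicate 4 or thioacetamide replicate 1) and was lost under median centring (adjusted p = 0.0593). Alad, which follows Alas1 in the pathway, differed by -0.60 ± 0.21 (adjusted p = 0.0882), with groups that did not overlap, and it passed under the filter on dim probe sets (adjusted p = 0.0464) and with an intensity trend and robust estimation (adjusted p = 0.0264).

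Heme breakdown and transport gave 2 rises and 0 falls of 9 measured (3 and 0 with a limma p below 0.05 before adjustment), with a median of 0.07. Hmox1, the inducible heme oxygenase that opens the heme ring and frees its iron, was at 10.27, 9.97, 10.86 and 9.94 in controls and at 12.43, 11.90, 11.42 and 11.92 in treated rats. Every treated rat lay above every control, and the rise was 3.15-fold (1.66 ± 0.28, adjusted p = 0.00365), with a highest adjusted p of 0.0157 with 1 array left out. Flvcr2, a membrane transporter first described for heme, was higher (adjusted p = 0.00163; means 7.23 ± 0.60 and 9.27 ± 0.22, SD, n = 4 each). As 2 of its 4 control values lay at or under background, no fold is given.

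**Figure D4:**
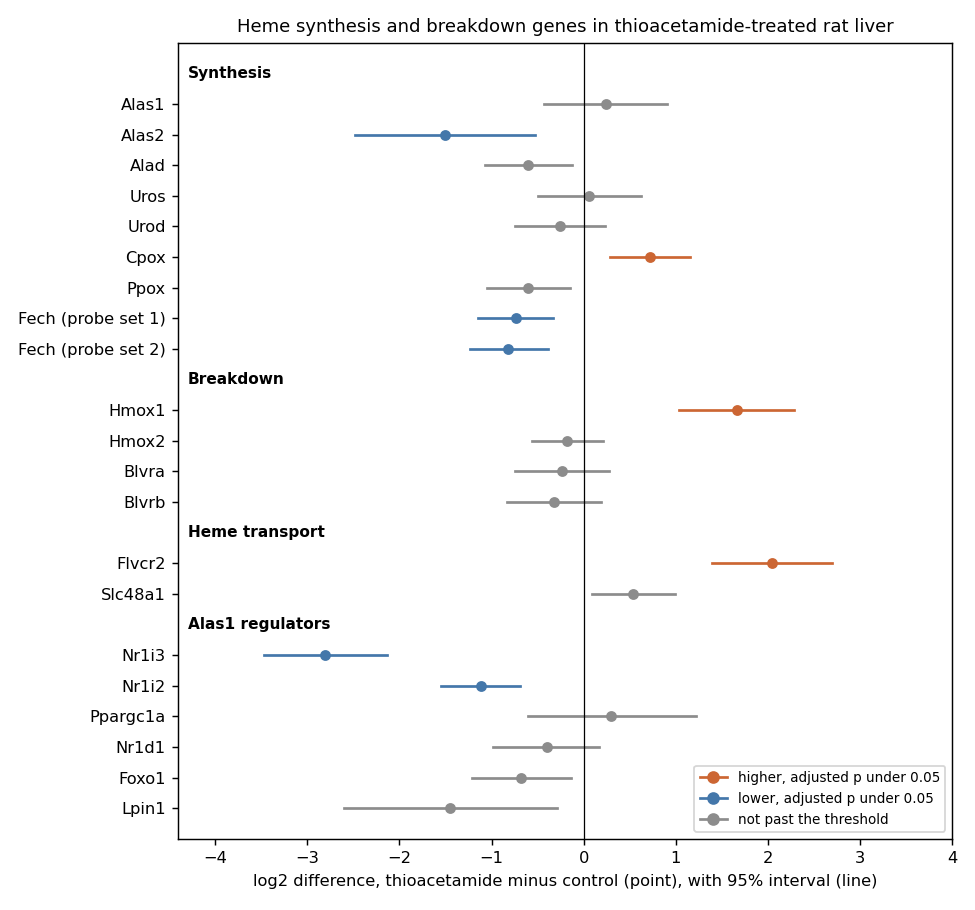
Log2 difference, thioacetamide minus control, with its 95% interval from the limma fit (n = 4 rats per group) for enzymes of heme synthesis, heme breakdown, heme transport and regulators of Alas1. Alas2 (-1.51) and both Fech probe sets (-0.74 and -0.82) lie to the left, Hmox1 (1.66) and Flvcr2, with 2 of 4 control values at or under background, to the right, and Nr1i3 (-2.81) is the farthest from 0.

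Alas2, the erythroid form of the first enzyme, fell 2.84-fold, with wide spread in both groups. Control rats 1 to 4 were at 9.26, 9.93, 11.28 and 9.97, and thioacetamide rats 1 to 4 at 8.31, 7.86, 9.22 and 9.03. The groups nearly touched, with 9.26 in the lowest control and 9.22 in the highest treated rat. The difference was -1.51 ± 0.44 (adjusted p = 0.0452), and the call was lost in 7 of the 8 fits with 1 array left out, all but that without control replicate 1 (adjusted p = 0.0287). Without control replicate 3, the highest control, it was -1.12 (adjusted p = 0.0583), and without thioacetamide replicate 2, the lowest treated rat, -1.26 (adjusted p = 0.139).

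Red cell RNA was measured beside Alas2, since whole liver holds blood. Of 23 erythroid markers 1 rose and 1 fell (1 and 2 with a limma p below 0.05 before adjustment), with a median of -0.29, and 8 of them lay at or under background on all arrays, among them Klf1 and Rhag. The log2 of their summed signal was 15.57 to 16.19 among controls and 14.64 to 15.68 among treated rats. Hbb-b1, a beta globin, fell 2.65-fold (-1.40 ± 0.32, adjusted p = 0.0174), with 11.45, 11.83, 12.52 and 11.47 in controls and 10.43, 9.69, 10.56 and 10.98 in treated rats. Control replicate 3 was the highest and thioacetamide replicate 2 the lowest array for Hbb-b1, as for Alas2, and no erythroid marker was called lower without thioacetamide replicate 1 or without thioacetamide replicate 2. Hbb differed by -0.68 ± 0.28 (adjusted p = 0.134) and Hba-a2 by -0.36 ± 0.27 (adjusted p = 0.405). Globin genes are near-identical copies, so signal shared between them cannot be separated. Of 10 hepatocyte markers 0 rose and 0 fell (0 and 0 with a limma p below 0.05 before adjustment), all above background on all arrays, with a log2 of the summed signal of 18.71 to 18.81 among controls and 18.70 to 18.77 among treated rats. The group means of 9 of these 10 markers lay between 15.13 and 15.73, close to the array maxima (15.89 to 15.98), so a difference in them may not be measurable. The part of blood RNA in the Alas2 result was not tested.

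**Figure D5:**
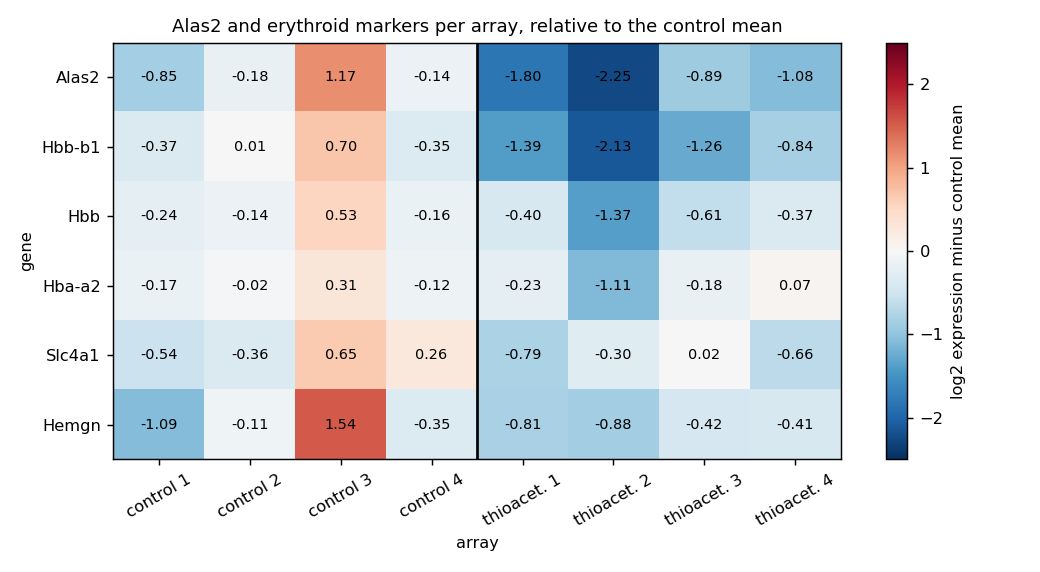
Log2 expression minus the control mean of the same gene, for Alas2 and 5 erythroid markers (rows) on the 8 arrays (columns); red is above and blue below the control mean, and the black line parts control from treated rats. Alas2, Hbb-b1, Hbb and Hemgn are lower than the control mean in all 4 treated rats, and Hba-a2 and Slc4a1 only in some. Control replicate 3 is the highest control in every row.

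The deviations of each array from its group mean were compared between Hamp, Tfrc, Alas1 and Alas2 and 14661 other probe sets above background on at least 4 arrays, as a description over 8 arrays with no test; the highest of so many correlations is high by selection. For Hamp the most alike were RGD1561179 (Pearson r = 0.98), Slpi (0.978) and Irs1 (0.969). For Tfrc they were Nmi (0.979), Lin9-ps1 (0.97) and Cxcl12 (0.964), of which Cxcl12 fell (adjusted p = 0.00414) while Tfrc rose. For Alas1 they were Lrrc58 (0.97), Rbm18 (0.966) and Tgfb1i4 (0.966). For Alas2 they were Lpp (0.991), Septin6 (0.981) and RGD1565598 (0.978).

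Across the wider lists, 12 of 99 measured genes rose and 12 fell, 24 in all, against 14.9% of all genes called. The count was 15 without thioacetamide replicate 2 and never above 23 with an array left out.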

How the data were processed

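Per the labels' protocols, total liver RNA of 4 control and 4 thioacetamide rats was labelled with Cy3 and hybridised to NimbleGen arrays, each group holding 4 animals. The authors' deposited values are on the log2 scale, 1 for each probe set of an array, and come from RMA per the submitters' processing notes, a method that corrects background, normalizes arrays and summarises probes. RMA's settings and the annotation build of the array are not stated in the sources used here. The values were used as deposited; control replicate 4 had no value for 11 probe sets, none of them a member. The files hold no depth; precision is limited by how many arrays there are.

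Probe sets were named through gene identifiers in the files and RefSeq (20543 by gene identifier, 31 by accession, 5634 keeping the name of the file). A gene with several probe sets is taken by the one of highest mean, with every probe set given for members. Groups were compared with limma 3.58.1 in R 4.3.3 (lmFit, eBayes, no block, two-sided), adjusted by Benjamini-Hochberg across the 26208 probe sets, called below 0.05, and tested on simulated data. Background is the 95th percentile of 1227 olfactory receptor probe sets per array, and a value after ± is the fit's standard error except where SD is written. The members and gene lists were chosen with earlier results of these data known. Named genes are the members, the 4 largest rises and falls per list (the 2 largest differences where none changed) and Hmox1, Alad, Tf, Hp, Bmp6, Aco1, Ireb2 and Tmprss6. Ftl1, Ncoa4, Fbxl5, Hjv, Bmpr1a, Bmpr2, Acvr1, Acvr2a, Smad6, Smad7, Atoh8, Neo1, Stat3, Il6, Fgb, C3 and the markers named were added after their values were seen. The motifs were chosen after the values were known. A few genes of the lists are counted but not reported here. Alternatives tried were median centring, cyclic loess, quantile normalization, array weights, a filter on dim probe sets, robust estimation with an intensity trend, a replicate block, the mean of all probe sets of a gene, and leaving out arrays.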

Additional observations from a re-analysis of the deposited data

Results flagged for a closer look

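A single array stood apart from the other 3 of its group in 5 of the 78 groups tested for the members and named genes, and chance flags about 1 in 20 groups of 4. The dimmer Fech probe set in control replicate 1 was at 12.20, against 12.30 to 12.32 in the other controls. Steap3 in control replicate 3 was at 9.17, against 9.81 to 9.86. Heph in control replicate 2 was at 5.48, against 6.93 to 7.07. Alad in thioacetamide replicate 2 was at 12.32, against 12.91 to 12.99. Saa4 in control replicate 1 was at 15.19, against 14.91 to 14.92.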

How the results depend on the processing

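Tfrc and Tfr2 kept their direction and call under all alternatives run. The sample titles give a replicate number but do not say that equal numbers pair rats. Deviations of arrays with equal numbers correlated at 0.246, -0.0983, -0.126 and -0.431, which cannot settle whether they do. With the number as a block, 2163 probe sets, 3 member probe sets and 15 wider genes changed. Slc40a1 (1.06, adjusted p = 0.0552) and both Fech probe sets (-0.74 and -0.82, adjusted p = 0.0872 and 0.0631) then lost the threshold. Cp passed with an intensity trend and robust estimation (-0.41, adjusted p = 0.0361). Without control replicates 2 and 3 and thioacetamide replicate 4, chosen after seeing the data, 4139 probe sets and 3 member probe sets changed, Alas1 differed by 0.58, and Alas2 (-1.15, adjusted p = 0.084) and both Fech probe sets (-0.66 and -0.73, adjusted p = 0.079 and 0.0789) lost it. The sign of uncalled differences turned for Fth1 (0.06 under cyclic loess and under quantile normalization), Hpx and Tf (0.08 and 0.04 under cyclic loess), and Bmp6 (-0.06, -0.25 and -0.12 under median centring, cyclic loess and quantile normalization, -0.16 without those 3 arrays). Leaving out each array gave 2166 to 3924 probe sets, 3 to 5 member probe sets and 15 to 23 wider genes changed, and differences of 0.24 to 0.75 for Hamp, -0.10 to 0.04 for Fth1, -0.05 to 0.03 for Hpx, 0.00 to 0.48 for Alas1, -1.79 to -1.12 for Alas2, -0.84 to -0.66 and -0.93 to -0.73 for Fech, -0.17 to 0.02 for Hp and -0.08 to 0.16 for Bmp6. Cyclic loess called 1998 probe sets higher and 1736 lower (53.5% higher, against 64.8%). Heme synthesis genes changed numbered 5 of 13 under the filter on dim probe sets, 4 with an intensity trend and robust estimation and 3 with array weights, and macrophage markers lower numbered 8, 7 and 4; median centring gave 0 and 8. Of 28 named wider genes, 15 kept direction and side of the threshold under all 16 alternatives. The cause of these shifts was not tested. Some of the fits also held fewer arrays or fewer probe sets.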
